A study of Mus musculus with 21 samples.

Results

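The genes described here are 35 of the 12021 genes in the vitamin C (Vc+) table of a mouse reprogramming study. They had a value of at most 15 in each of the 4 Vc+ libraries without Tet1CD and of at least 32 in each of the 3 Vc+ libraries with it. In all, 42 genes met these thresholds, and 7 of them, mostly germline genes, are left out by name (Cfap70, Dazl, Dppa2, Ifit3, Pet2, Tex19.1 and Tuba3b). Since the members were chosen by their values in the 7 Vc+ libraries, the contrast with Tet1CD in Vc+ cells is a description, and no test of it on the members is given.

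RNA was sequenced from fibroblasts of ICR mouse embryos of day 13.5 (MEFs, passage 2) and from the same kind of cells infected with retroviruses for Sox2, Klf4, Oct4 and c-Myc (SKOM cells), taken on day 5 after infection and grown without (Vc-) or with vitamin C (Vc+). All groups also carried retroviral constructs given for 48 hours. In each SKOM medium there were 7 libraries: the control labelled Flag+shLuc, Dnmt1, shDnmt1, shp53+shDnmt1, Tet1CD, Tet1CD+Dnmt1 and Tet1CD+shDnmt1. The MEF table held Flag+shLuc, Dnmt1, shDnmt1, shp53, shp53+shDnmt1 and Tet1CD, plus a fibroblast library labelled 5C with Flag+shLuc. The 5C library is set beside the MEF control only among the results flagged at the end. Each combination of constructs had 1 library, and nothing in the labels says that libraries came from separate cultures or which clone or vector promoter was used.

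Tet1 is one of the enzymes that oxidise 5-methylcytosine in DNA, which can lead to loss of the methyl mark, and Tet1CD is a usual name for its catalytic domain. Tet enzymes need iron and 2-oxoglutarate, and vitamin C raises their activity in cultured cells. Dnmt1 copies methylation onto new DNA strands when cells divide. Promoters with few CG dinucleotides and many promoters of germline and tissue genes carry methylation in fibroblasts, and silent genes of this kind are a common place to look for effects of demethylation.

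The sequences below are the 250 bases before the start of 5 members, with each CG in capitals, and they show how far the members ranged in CG content. They were chosen after the CG counts were known, to cover that range. They are from RefSeq on GRCm38.p6, written 5′ to 3′ on the strand of the gene: Trim30a at chr7:104465194-104465443 (minus strand), Tnip3 at chr6:65590148-65590397 (plus), Selp at chr1:164115014-164115263 (plus), 1700080O16Rik at chrX:51972773-51973022 (minus) and Wnt11 at chr7:98834862-98835111 (plus).
Trim30a: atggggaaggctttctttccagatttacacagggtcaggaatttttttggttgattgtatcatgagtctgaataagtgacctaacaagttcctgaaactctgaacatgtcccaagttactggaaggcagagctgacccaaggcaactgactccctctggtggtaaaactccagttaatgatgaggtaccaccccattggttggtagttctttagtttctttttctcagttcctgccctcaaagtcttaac
Tnip3: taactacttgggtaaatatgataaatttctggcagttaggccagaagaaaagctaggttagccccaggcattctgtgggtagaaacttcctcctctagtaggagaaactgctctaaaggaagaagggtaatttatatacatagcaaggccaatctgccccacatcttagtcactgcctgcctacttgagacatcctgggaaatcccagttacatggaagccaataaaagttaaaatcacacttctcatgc
Selp: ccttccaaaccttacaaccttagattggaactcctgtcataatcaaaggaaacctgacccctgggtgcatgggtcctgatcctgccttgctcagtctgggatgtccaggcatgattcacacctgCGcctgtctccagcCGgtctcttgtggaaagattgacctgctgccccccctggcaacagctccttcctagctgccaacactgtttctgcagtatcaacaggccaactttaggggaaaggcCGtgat
1700080O16Rik: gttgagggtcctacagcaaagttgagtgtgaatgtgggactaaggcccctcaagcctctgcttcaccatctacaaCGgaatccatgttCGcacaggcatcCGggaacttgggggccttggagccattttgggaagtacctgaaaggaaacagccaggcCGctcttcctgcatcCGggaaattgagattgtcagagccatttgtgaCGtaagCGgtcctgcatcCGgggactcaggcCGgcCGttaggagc
Wnt11: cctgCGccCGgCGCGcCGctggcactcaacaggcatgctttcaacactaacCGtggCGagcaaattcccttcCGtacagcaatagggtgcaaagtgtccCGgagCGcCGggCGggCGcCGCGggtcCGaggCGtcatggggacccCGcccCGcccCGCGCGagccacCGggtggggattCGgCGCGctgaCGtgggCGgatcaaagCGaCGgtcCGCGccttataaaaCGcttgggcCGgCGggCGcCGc

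The stretches of Trim30a and Tnip3 held 0 CG, that of Selp held 3, that of 1700080O16Rik held 10 and that of Wnt11 held 37. Most members were at the CG-poor end. A RefSeq promoter within 500 bp of the start in the annotation was found for 20 of the 35 members. Over the 300 bases round the start (250 before to 50 after), the observed over expected CpG ratio had a median of 0.31 in these 20 members, against 0.79 in 8399 genes of the Vc+ table. A ratio of at least 0.6 was found in 4 of 20 members (20% of them): Wnt11 (1.18), Serinc2 (0.84), Hist2h3c2 (0.75) and Cd274 (0.72). Of all genes of the table, 76.6% reached it. The table leaves out genes that are silent in all libraries, and over all 32851 RefSeq starts the median was 0.38 and the share 35.8%. The 20 members were below both of these, but nearer to them than to the values of the table. CG-poor starts were not particular to them. The 144 other genes that were at least 4-fold higher with Tet1CD in Vc+ cells, with no overlap between libraries, had a median of 0.32 over 89 starts. In the other direction, 22 genes were at least 32 in every Vc+ library without Tet1CD and at most 15 in every library with it, and 14 of them with a start had a median of 0.69.

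**Figure D1:**
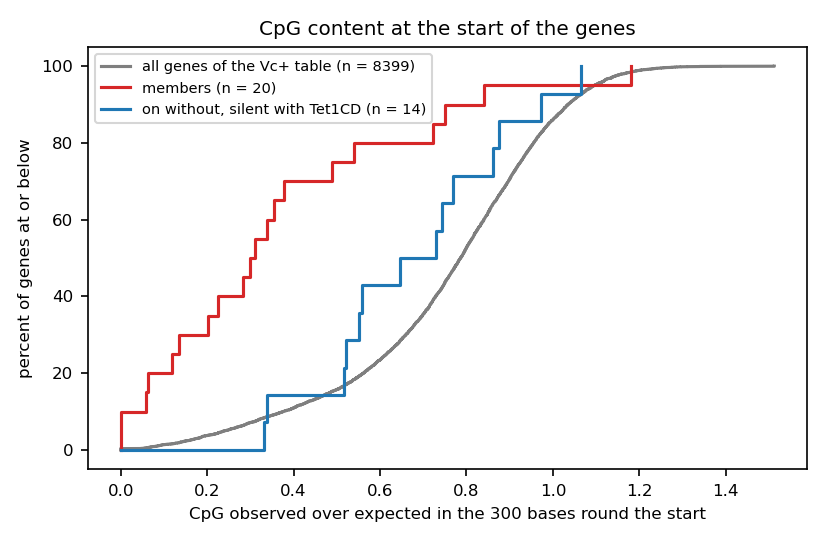
Cumulative share of genes (vertical axis, percent) at or below each observed over expected CpG ratio (horizontal axis) in the 300 bases round the start, for all genes of the Vc+ table, the members, and the genes silent only with Tet1CD. The curve of the members lies to the left of that of all genes over most of its range, with medians of 0.31 and 0.79.

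Few motifs were held by many members. The letters CACGTG (E-box) and TGACGTCA (CRE) were found on either strand in 0 of the 20 promoters, against 10.6% and 3.43% of all promoters of the Vc+ table. GGCGGGAA, an E2F-type motif, was found in 1 (5%, Spaca1; 4.49% of all), and TATAAA in 4 (20%; 6.88% of all): Dhrs9, Epgn, Tnip3 and Wnt11. The core of the interferon-stimulated response element (GAAA, any 2 bases, GAAA) was added after values were seen, and 3 members held it (15%; 3.02% of all): Trim30a, Slc13a4 and I830012O16Rik. Over all RefSeq starts the shares were 7.15%, 1.79%, 2.19%, 13.6% and 3.44%. The overlap of these motifs with each other was not examined, and a match is a match of letters only.

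The members lay on 15 chromosomes. Of the 35, 5 were on chromosome 1 (6.49% of all genes of the table are) and 3 on X (8.57% of the members against 3.66% of all). No member lay within 100 kb of another, the nearest pair being Sp100 and Inpp5d on chromosome 1, 1.96 Mb apart. In the annotation 34 were protein coding, and 1 was a lincRNA, which the table gives only by its identifier, ENSMUSG00000103464 (chr3:51103660-51105170, GENCODE M21 on GRCm38, where it is called Gm38246).

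Expression with Tet1CD was low for nearly all members. The median value in the 3 Vc+ libraries with Tet1CD was 47 and in the 4 without it 7, where the median gene of each Vc+ library was at 226 and the lower quartile at 88. In all 3 libraries with Tet1CD, 34 of 35 members were below that median and 28 below that quartile. Divided by the length of the longest annotated transcript, the level with Tet1CD had a median of 18.9 per kb in the members and 65.2 per kb in all genes of the table, with 34 of 35 members below the latter. In the libraries without Tet1CD, 8 members were listed at 0 at least once and 1 in all 4. In bulk RNA, a few cells with a high level and many cells with a low one cannot be told apart.

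The thresholds divide a continuum. The members nearest the upper bound without Tet1CD were Dhrs9 and Inpp5d at 15, and just outside were Asz1, Eef1a2 and Foxs1 at 16. Gm15023, Mageb16 and Trim30a were at 32 in their lowest library with Tet1CD, and Apobr, Lims2 and Mgst2 missed the rule at 31. Of the 12021 genes, 69 were at most 15 in all 4 libraries without Tet1CD. Of these, 42 met the rule's other threshold as well, and the other 27 reached 32 in only 2 of the 3 libraries with it. Every listed gene had at least 32 in 2 or more libraries, so a gene silent without Tet1CD can be in the table only through libraries with it, and 3 against 4 libraries without overlap were also found for 25.0% of all genes in the higher direction.

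**Figure D2:**
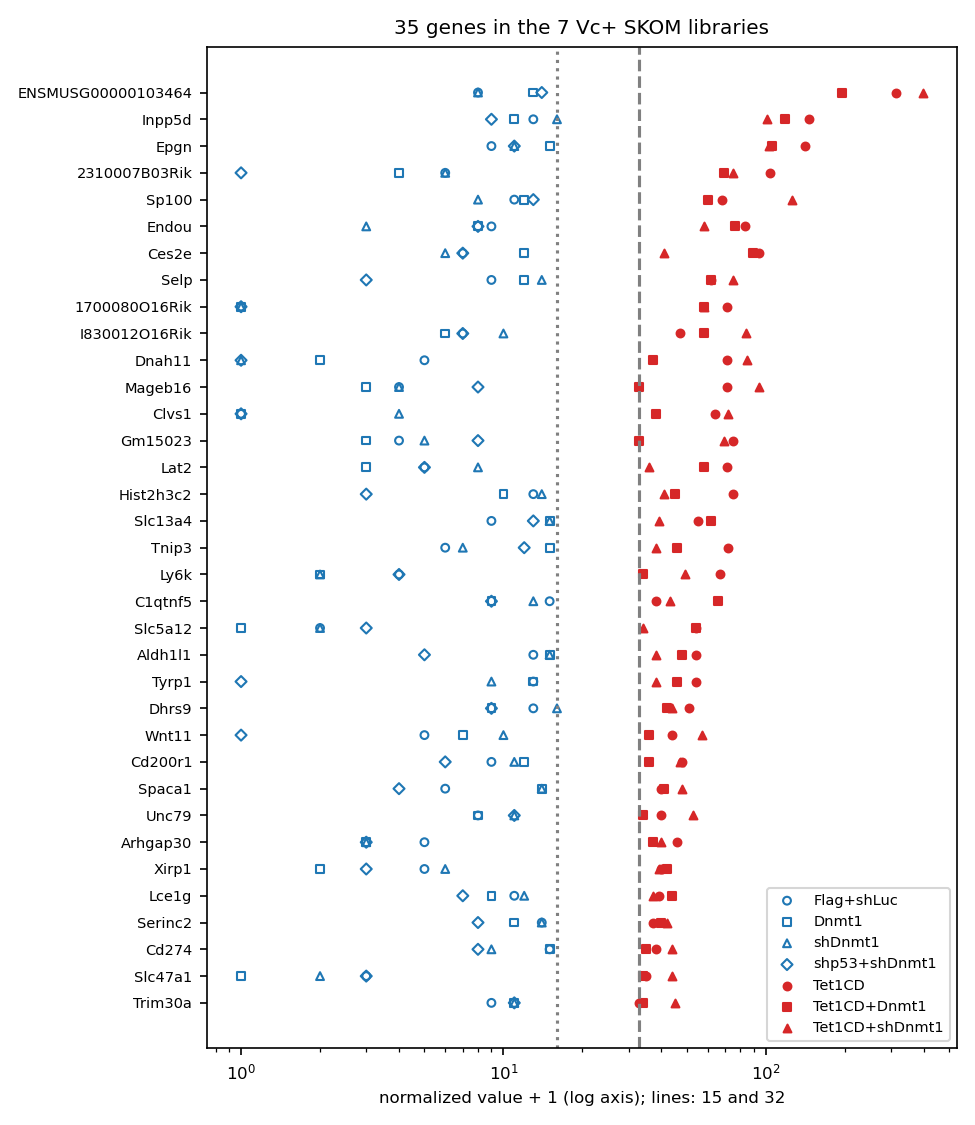
Each member (rows, ordered by the level with Tet1CD) in the 7 Vc+ libraries; the horizontal log axis is the normalized value plus 1. Open blue symbols are the 4 libraries without Tet1CD and filled red symbols the 3 with it, 1 symbol a library; the lines mark 15 and 32.

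The lincRNA had the highest values with Tet1CD, between 195 and 396, and was at 7 to 13 without it. Inpp5d and Epgn came next, and are described here with Wnt11 and C1qtnf5, secreted proteins that were lower. Inpp5d encodes SHIP1, a lipid phosphatase of blood cells. It was at 12 in the control, 10 with Dnmt1, 15 with shDnmt1 and 8 with shp53+shDnmt1, and at 145 with Tet1CD, 117 with Tet1CD+Dnmt1 and 100 with Tet1CD+shDnmt1. In every set of values below, the order of libraries is the same: these 4 and then these 3. Epgn, which encodes epigen, a ligand of the EGF receptor, was at 8, 14, 10 and 10 and then at 140, 105 and 102. Wnt11, a secreted Wnt ligand, was at 4, 6, 9 and 0 and then at 43, 35 and 56. C1qtnf5, a secreted C1q-type protein, was at 14, 8, 12 and 8 and then at 37, 65 and 42. Its reads may be shared with Mfrp, which overlaps it on the same strand. The gap between the groups was narrowest in C1qtnf5 of these 4 and widest in Inpp5d and Epgn, whose lowest values with Tet1CD were 100 and 102.

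Several members are known from leukocytes and the vessel wall. Selp, P-selectin, which slows leukocytes on activated endothelium and is also found on platelets, was at 8, 11, 13 and 2 and then at 61, 61 and 74. Lat2, an adaptor of signalling in B cells, mast cells and myeloid cells, was at 4, 2, 7 and 4 and then at 70, 57 and 35. Arhgap30 was at 4, 2, 2 and 2 and then at 45, 36 and 39. The lowest library with Tet1CD was that with shDnmt1 for Lat2 and that with Dnmt1 for Arhgap30. Cd274, the checkpoint ligand PD-L1, was at 14, 14, 8 and 7 and then at 37, 34 and 43, and Cd200r1, the receptor of CD200, at 8, 11, 10 and 5 and then at 47, 35 and 46. Both had narrow ranges with Tet1CD. Tnip3, an inhibitor of NF-κB signalling, was at 5, 14, 6 and 11 and then at 71, 45 and 37.

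The interferon-related members were Sp100, Trim30a and I830012O16Rik. Sp100, a component of PML nuclear bodies, was at 10, 11, 7 and 12 and then at 67, 59 and 125. Trim30a, a TRIM protein induced by interferon, was at 8, 10, 10 and 10 and then at 32, 33 and 44. I830012O16Rik is called Ifit3b in the annotation. It was at 6, 5, 9 and 6 and then at 46, 57 and 83. It is nearly identical to Ifit3, so reads of the pair could have been split between them, and it is a member only because the table uses its older name. In all 3 genes the highest of the 7 values was in the library with Tet1CD+shDnmt1.

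Genes of sperm, testis and cilia formed another group. Mageb16, an X-linked member of the MAGE family, was at 3, 2, 3 and 7 and then at 70, 32 and 93. Dnah11, a heavy chain of the outer dynein arm of motile cilia, was at 4, 1, 0 and 0 and then at 70, 36 and 84. Spaca1, a protein of the sperm acrosome, was at 5, 13, 13 and 3 and then at 39, 40 and 47. Of these, Mageb16 and Dnah11 were lowest among the libraries with Tet1CD in that with Tet1CD+Dnmt1. The X-linked 1700080O16Rik was listed at 0 in all 4 libraries without Tet1CD and at 70, 57 and 57 with it, the only member with such a record. Ly6k, a small surface protein of the Ly6 family known from testis, was at 3, 1, 1 and 3 and then at 66, 33 and 48.

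Enzymes and transporters were the broadest group. Ces2e, a carboxylesterase, was at 6, 11, 5 and 6 and then at 93, 88 and 40. Endou, an endoribonuclease, was at 8, 7, 2 and 7 and then at 82, 75 and 57. In both the library with Tet1CD+shDnmt1 was the lowest of the 3. Slc5a12, a lactate transporter of kidney and gut, was at 1, 0, 1 and 2 and then at 53, 53 and 33. Slc47a1, an exporter of organic cations in kidney and liver, was at 2, 0, 1 and 2 and then at 34, 33 and 43. Slc13a4, a sulfate transporter, was at 8, 14, 14 and 12 and then at 54, 61 and 38. The first 2 of these transporters were at 0 to 2 when Tet1CD was absent, and the third at 8 to 14. Tyrp1, a melanosome enzyme of pigment cells, was at 12, 12, 8 and 0 and then at 53, 45 and 37, and Aldh1l1, an enzyme of folate metabolism, at 12, 14, 14 and 4 and then at 53, 47 and 37. Dhrs9, a short-chain dehydrogenase that acts on retinoids and steroids, was at 12, 8, 15 and 8 and then at 50, 41 and 43.

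Of structural genes, Xirp1, an actin-binding protein of striated muscle, was at 4, 1, 5 and 2 and then at 39, 41 and 38, and Lce1g, of the cornified envelope of skin, at 10, 8, 11 and 6 and then at 38, 43 and 36. Xirp1 overlaps Cx3cr1 on the same strand, so reads of the pair may be mixed. Hist2h3c2, a replication-dependent histone H3 gene, was at 12, 9, 13 and 2 and then at 74, 44 and 40. Its coding sequence is nearly identical to other H3 genes and its value is uncertain for that reason. Clvs1, a lipid-binding protein of clathrin-coated vesicles, was at 0, 0, 3 and 0 and then at 63, 37 and 71. Unc79, a part of the NALCN sodium leak channel complex, was at 7, 7, 10 and 10 and then at 39, 33 and 52. Serinc2, named as a serine incorporator, was at 13, 10, 13 and 7 and then at 36, 39 and 41. The remaining 2 members, Gm15023 and 2310007B03Rik, were at 2 to 7 and at 0 to 5 without Tet1CD and at 32 to 74 and at 68 to 103 with it. Across the 35, 10 genes overlap another gene on the opposite strand, among them Selp, Sp100, Dnah11 and Lat2, and no source used here says whether counting was by strand.

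The members did not have the same order among the 3 libraries with Tet1CD. The highest value was in the library with Tet1CD alone for 16 members, in that with Tet1CD+shDnmt1 for 14 and in that with Tet1CD+Dnmt1 for 4. In the same order, the shares were 33.2%, 36.8% and 27.0% of all genes. They were 46.5%, 44.4% and 4.17% of the 144 other genes at least 4-fold higher with Tet1CD, so this pattern was not particular to the members. Adding the Dnmt1 construct to Tet1CD went with a lower value in 25 of 35 members and a higher one in 8, with a median log2 difference of -0.21. Of all 12021 genes 50.2% were lower, with a median of 0.00, and of the 144 other genes at least 4-fold higher with Tet1CD 81.9% were lower, with a median of -0.23. The rule required at least 32 in each of these libraries, so silent genes that were lower in 1 of them are not among the members, and these counts are descriptions. The change was at least 2-fold, on the log2(value + 5) scale, for Gm15023 (-1.09) and Mageb16 (-1.02), 2 of 35 members (0.507% of all genes), and was at least 2-fold in the higher direction for 0 (1.01% of all). With added shDnmt1, 20 of 35 were lower and 15 higher, with a median of -0.07 (50.2% of all genes were lower). Ces2e was the 1 member at least 2-fold lower (-1.12; 1.35% of all genes), and 0 were at least 2-fold higher (1.49% of all), the nearest being Sp100 (0.85) and I830012O16Rik (0.79). Each of these ratios is 1 library over another, both share the library with Tet1CD alone, and there is no replicate check. Each of the 7 genes left out by name was lowest in the library with Tet1CD+Dnmt1 among the 3, in Dppa2 by a margin of 1 (46, 39 and 40) and in Dazl by a wider one (337, 222 and 447).

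**Figure D3:**
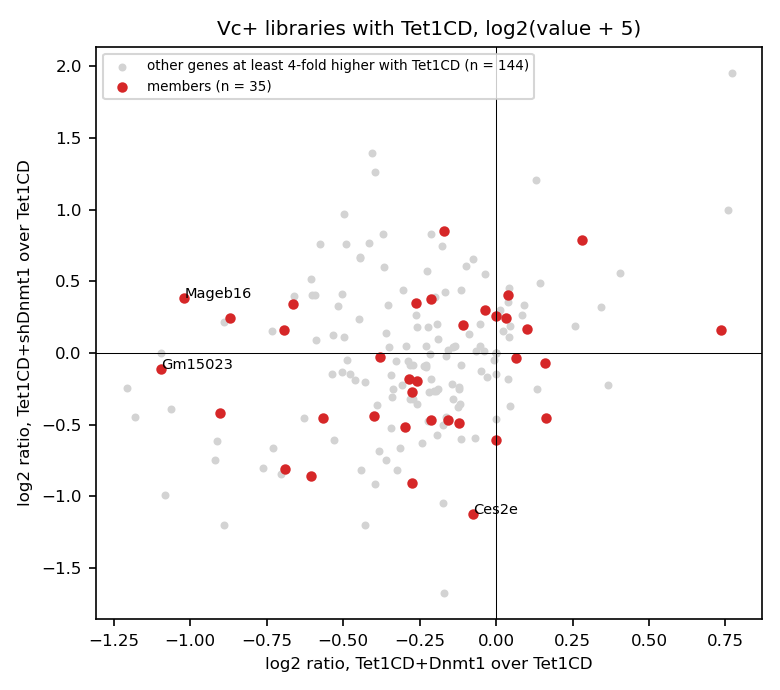
Log2 ratio of Tet1CD+Dnmt1 over Tet1CD (horizontal) against that of Tet1CD+shDnmt1 over Tet1CD (vertical) in Vc+ cells, on log2(value + 5), for the members and for the 144 other genes at least 4-fold higher with Tet1CD. Each point is a gene and both axes share the Tet1CD library; 25 of 35 members lie left of 0, and the named genes changed at least 2-fold.

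Tet1 matched the labels: its value was 2503 to 3129 in the 3 Vc+ libraries with Tet1CD and 41 to 88 in the 4 without, and with 2140 to 2632 against 11 to 19 in Vc- cells. Dnmt1 was at 2346 in the Vc+ control and 1154 with shDnmt1. The library labelled Dnmt1 was at 2381, hardly above the control, and was no further above it in Vc- cells (1001 against 984) or in MEFs (975 against 957). Dnmt1 was also lower with Tet1CD alone, at 1080, and was 1224 with Tet1CD+Dnmt1 and 655 with Tet1CD+shDnmt1. Trp53 was at 621 with shp53+shDnmt1 against 1194 in the Vc+ control. Of 8 macrophage markers, Laptm5, Ptprc, Cd53 and Cd68 were listed in the Vc+ table, and their summed value was 285 to 364 without Tet1CD and 1948 to 2620 with it, most of it from Laptm5. Csf1r, Adgre1, Tyrobp and Fcer1g were not listed, and Ptprc and Cd53 were at 0 in at least 1 library without Tet1CD. All 6 fibroblast markers were listed, with sums of 8794 to 15812 without and 26071 to 27411 with Tet1CD. The listed endothelial markers went in opposite directions. Emcn was at 62 to 73 without and 124 to 142 with Tet1CD, and Tek at 544 to 634 without and 386 to 400 with it. Their sum, mostly from Tek, was 609 to 696 without and 518 to 528 with Tet1CD, while Pecam1, Cdh5 and Kdr were not listed. No lymphocyte, pluripotent cell or trophoblast marker and 1 of 5 germ cell markers, Dazl, was listed. Of the listed markers, 3 of 4 for macrophages and 5 of 6 for fibroblasts were higher in all 3 libraries with Tet1CD than in the 4 without. Emcn and Dazl were higher in all 3 too, Cd53 and Pdgfra overlapped, and Tek was lower. Ptprc, at 0 to 27 without Tet1CD, and Dazl, at 1 to 2, could be listed only through libraries with it and so had to be high. The part of the markers in the members' values was not tested.

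None of the 35 members was listed in the Vc- table, although 89.1% of the 12021 genes were. Nor was any of the 69 genes that were at most 15 in the 4 Vc+ libraries without Tet1CD. Each gene of the Vc- table had at least 32 in 2 or more of its 7 libraries, and the members' values in Vc- cells are not known from it. A test of Tet1CD on the members in Vc- cells could therefore not be made. The same thresholds applied to the Vc- table found 3 genes in place of 42: Apol9a, an interferon-induced apolipoprotein, at 14, 15, 14 and 12 without and 33, 37 and 44 with Tet1CD, Ptprc, the leukocyte antigen CD45, at 9, 12, 13 and 0 and then 43, 44 and 36, and Cdh19, a cadherin, at 10, 0, 6 and 0 and then 37, 38 and 37. None was a member. In Vc+ cells Apol9a was already at 36 to 64 without Tet1CD, and Ptprc reached 27 in 1 library without it. The exchanged thresholds found 22 genes in the Vc+ table and 0 in the Vc- table. The median gene was at 226 in Vc+ and at 180 in Vc- libraries, so the thresholds need not mark the same level in both. Whether the effect of Tet1CD on the members differs between the media was not tested.

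In MEFs, 8 of the 35 members were listed, where 89.7% of all Vc+ genes were. These 8 were not all silent in MEFs without Tet1CD. In the order Flag+shLuc, Dnmt1, shDnmt1, shp53, shp53+shDnmt1 and Tet1CD, Selp was at 91, 82, 264, 50, 145 and 549. Dhrs9 was at 188, 132, 135, 99, 98 and 333. Both were highest with Tet1CD, and Selp was also above the control in both libraries with shDnmt1. Serinc2 was at 126, 143, 123, 56, 77 and 133, with the Tet1CD library below that labelled Dnmt1. C1qtnf5 was at 53, 43, 46, 17, 19 and 93, and Tnip3 at 43, 37, 55, 33, 29 and 80. I830012O16Rik was at 59, 15, 11, 6, 13 and 97. For these 3 the Tet1CD library was the highest of the 6 as well. Sp100 was at 10, 4, 7, 7, 4 and 36, and Ces2e at 16, 18, 30, 5, 1 and 38. These 2 are in the MEF table only with the help of the Tet1CD library, and the other 6 would be listed without it.

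**Figure D4:**
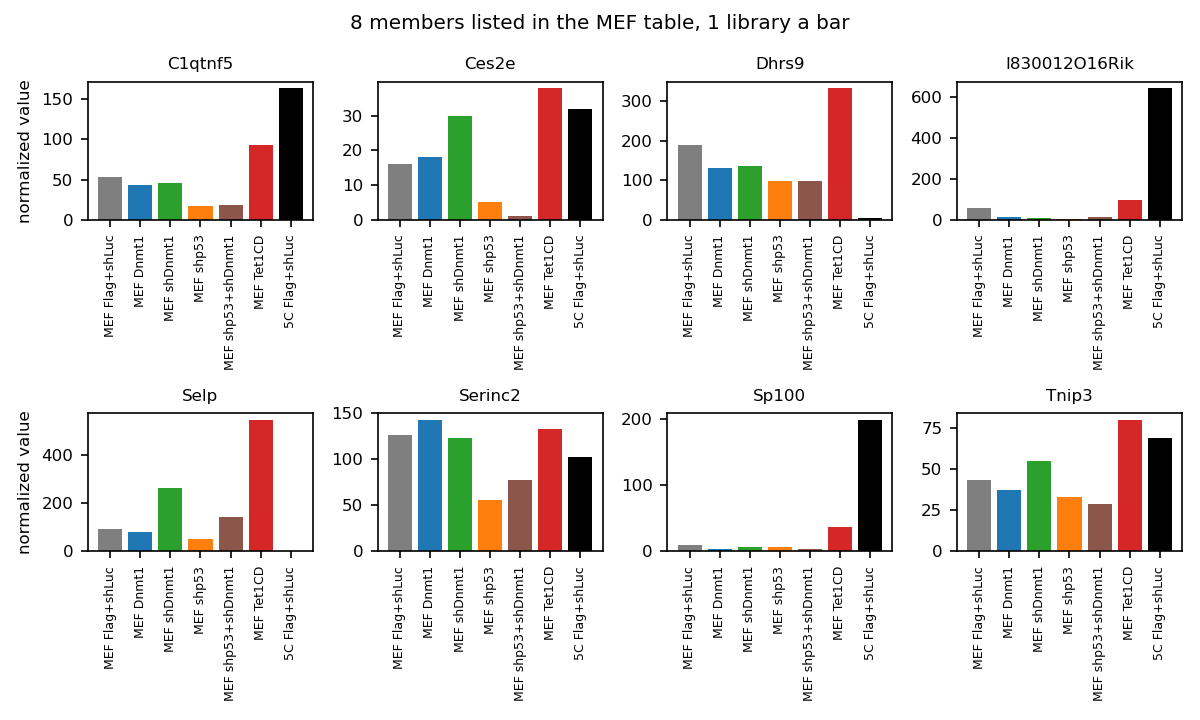
Normalized value (vertical axis, from 0, a scale of its own in each panel) of the 8 members listed in the MEF table, 1 bar a library. The Tet1CD bar is above the other 5 MEF bars in every panel but Serinc2. The black bar is the library labelled 5C, which is not counted among these.

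Against the MEF control, all 8 listed members were higher with Tet1CD by some amount, as were 47.2% of all genes of the MEF table. In 7 of the 8 the Tet1CD library was above the other 5 MEF libraries, which was so for 24.5% of all genes. On log2(value + 5), the difference was at least 2-fold for 3 of 8 members (2.29% of all genes): Selp, which was 5.77-fold higher (log2 2.53), Sp100 (log2 1.45) and Ces2e (log2 1.03). Since Sp100 and Ces2e are listed only with the help of the Tet1CD library, they were likely to be high in it. Among the 6 members listed without that help, 1 was at least 2-fold higher, Selp, against 1.88% of the 11037 genes so listed. It was at least 2-fold lower for 0 (2.13% of all). The other 5 were at 0.82 for Tnip3, 0.81 for Dhrs9, 0.76 for C1qtnf5, 0.67 for I830012O16Rik and 0.08 for Serinc2. Against the control with a pseudocount of 20, only Selp was at least 2-fold higher. With the MEF library labelled Dnmt1 as the reference and the usual pseudocount, 6 of 8 were at least 2-fold higher. No share of all genes is given for that reference, so the 6 of 8 cannot be judged beside it. They include Sp100 and also I830012O16Rik, which was at 15 in the library labelled Dnmt1 and at 59 in the control. The 5 of 8 macrophage markers listed in MEFs summed to 574 with Tet1CD and 121 to 388 in the libraries without it, and their part was not tested. Tet1 itself is not listed in the MEF table, so the label of that library has no check from it.

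Knockdown of Dnmt1 in MEFs, where Dnmt1 was at 957 in the control and 208 with shDnmt1, went with a value at least 2-fold higher in both pairs of libraries (shDnmt1 over Flag+shLuc, and shp53+shDnmt1 over shp53) for 1 of 8 members, Selp, with log2 differences of 1.49 and 1.45. Of all genes 0.0986% did so, and 0.135% did so in the lower direction, with 0 members. I830012O16Rik was 2.00 lower on the log2 scale in the first pair and 0.71 higher in the other. The remaining 6 members were within 0.74 of 0 in both pairs and had no common direction. The shp53 construct, examined after values were seen, uses the same 4 libraries paired the other way. Trp53 was at 157 with shp53 and 186 with shp53+shDnmt1 against 1008 and 966. All 8 members were lower with shp53 than in the control, 4 of them at least 2-fold, but no share of all genes is given for this pair alone. In both pairs 7 of 8 were lower, as were 37.1% of all genes. At least 2-fold lower in both pairs were C1qtnf5 (log2 -1.40 and -1.09) and Ces2e (-1.07 and -2.54), 2 of 8 members against 1.88% of all genes, with 0 at least 2-fold higher (1.70% of all). The Tet1CD, first shDnmt1 and first shp53 comparisons share the MEF control library, which for I830012O16Rik was well above the library labelled Dnmt1, at 59 against 15.

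Other genes close to the members were often higher with Tet1CD too. In Vc+ cells, 28 members had another listed gene within 100 kb, and 13 of the 28 (46.4%) had at least 1 such neighbour that was 2-fold or more higher with Tet1CD, by mean log2 values of the 3 and 4 libraries. The same was so for 19.18% of the 10605 genes of the table with a listed neighbour. Several pairs are members of 1 gene family in a cluster. Ereg, which encodes epiregulin, another EGF receptor ligand, lies beside Epgn and was 4.69-fold higher, at 94 to 128 without and 454 to 627 with Tet1CD. Ces2g lies beside Ces2e and was 5.41-fold higher, at 17 to 57 without and 174 to 272 with Tet1CD. Beside I830012O16Rik, Ifit1 was 5.98-fold and Ifit3 4.69-fold higher. Hist2h2aa1 (2.11-fold) and Hist2h2bb (2.33-fold) lie beside Hist2h3c2, Trim34b (2.84-fold) and Trim12c (2.43-fold) beside Trim30a, and Lynx1 (2.34-fold) and Psca (2.31-fold) beside Ly6k. Others are unrelated by name, such as Usp2 by C1qtnf5 (3.99-fold), Pvrl4 by Arhgap30 (3.45-fold), Gpc4 by 1700080O16Rik (3.10-fold) and Rapgef3 by Endou (2.85-fold). Without Tet1CD, Pvrl4 was at 4 to 12, Trim34b at 9 to 16, Hist2h2bb at 6 to 25 and Ifit3 at 4 to 9. These can be listed only through libraries with Tet1CD and so had to be high. Usp2, at 14 to 32 without it, also needed such a library. The count of 13 is therefore not free of the listing filter. The neighbours of Inpp5d, Atg16l1 (0.98-fold) and Sag (1.02-fold), were not 2-fold higher, and Cdca7l, which lies beside Dnah11 on the other strand, was lower with Tet1CD, at 97 to 111 against 239 to 271.

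Of the 35 members, 8 belong to 1 of 6 wider gene lists (Mageb16, Dnah11, Spaca1, Lat2, Sp100, Trim30a, Xirp1 and Selp), and the other 27 to none. The other genes of these lists describe the lists and not the members. In the limma fit of the 7 Vc+ libraries with a term for each construct, 59 of 67 other interferon-stimulated genes passed an adjusted p of 0.05 (Benjamini-Hochberg over all genes) as higher with Tet1CD and 1 as lower, with a list median of 1.34 on the log2 scale. This is the contrast that chose the members. The lists are read for genes other than the members, but 5 of these met the same thresholds and had been left out only by name. Of all genes 20.7% were called higher and 23.6% lower, with a median of -0.07. Examples are Rtp4 (2.63, SE 0.10, adjusted p = 0.00013), Usp18 (2.55, SE 0.15, adjusted p = 0.00027), which removes the ubiquitin-like ISG15 protein, and the transcription factor Irf7 (2.22, SE 0.12, adjusted p = 0.00023). H2-Q6 was the 1 lower gene (-1.15, SE 0.30, adjusted p = 0.025), and near-identical class I genes make its value uncertain. This call was lost when any 1 library other than that with shp53+shDnmt1 was left out. Of other leukocyte genes 12 of 17 were higher and 0 lower (median 0.90), among them Laptm5 (2.82, SE 0.11) and Clec4d (3.17, SE 0.32). Ptprc, at 0 to 27 without and 45 to 50 with Tet1CD, is among the 12. It can be listed only through libraries with Tet1CD and so had to be high. Clec4d, at 41, 44 and 53 with Tet1CD, may be listed that way too, so this count is not free of the listing filter. In the endothelial list, 10 of 16 were higher and 3 lower (median 0.77). Esm1 (4.48, SE 0.10) and Mmrn2 (4.37, SE 0.14) were among the higher, and the angiopoietin receptor gene Tek (-0.58, SE 0.09), the lymphatic regulator Prox1 (-0.66, SE 0.19) and Ramp2 (-0.81, SE 0.21) were the lower. The 3 lower calls became 0 without the library labelled Dnmt1 or Tet1CD+Dnmt1 and 1 without the control or Tet1CD. Of germline genes other than Mageb16, 12 of 22 were higher and 2, Trip13 (-0.76, SE 0.10) and Mei4 (-2.10, SE 0.61), lower (median 1.72). Among the higher are Dazl, Pet2, Tex19.1 and Tuba3b, which met the thresholds of the members in these libraries and so had to be high. Without these 4, 8 of 18 were higher (median 1.19). The 8 still hold Asz1, at most 16 without and at least 72 with Tet1CD. It can be listed only through libraries with Tet1CD and so had to be high. Taf7l, at 58, 29 and 68 with Tet1CD, is among the 8 as well, so this count is not free of the listing filter. Of striated muscle genes 7 of 11 were higher and 1, Ryr2 (-1.21, SE 0.18), was lower (median 0.81), and of sperm and cilium axoneme genes 4 of 13 were higher and 1, Tppp3 (-0.48, SE 0.11), was lower (median 0.10). Cfap70, 1 of these 4, also met the thresholds, and without it 3 of 12 were higher, with a median of -0.01. The genes of all 6 lists together counted 104 higher and 8 lower of 146 (99 and 8 of 141 without the 5 genes that met the thresholds), and 79 to 105 higher when any 1 library was left out. The leukocyte count was 7 without the library labelled Dnmt1 or that with Tet1CD+Dnmt1. The muscle count was 2 without either of these and 4 without the control or the library with Tet1CD alone, and the sperm and cilium count was 2 without either of the latter. The germline lower count was 1 without the control or the library labelled Dnmt1, Tet1CD or Tet1CD+Dnmt1, and with a pseudocount of 1, and the call of Tppp3 was lost without the library labelled Dnmt1 or Tet1CD+Dnmt1. Over the 6 lists, the lower count of 8 was 2 without the library labelled Dnmt1 or Tet1CD+Dnmt1 and 4 without the control or Tet1CD. Leaving out any of these libraries leaves 1 residual degree of freedom in place of 2, so lost calls cannot be tied to the library left out.

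Without vitamin C fewer genes of these lists are in the table and fewer passed the same test. Of interferon-stimulated genes, 27 of 46 were called higher and 0 lower with Tet1CD in Vc- cells (median 0.53), where 7.25% of all genes were called higher and 7.38% lower (median -0.01). Irf7 was higher by 1.08 (SE 0.20, adjusted p = 0.019). Of leukocyte genes 6 of 12 were higher and 0 lower (median 0.55), among them Laptm5 (0.97, SE 0.10, adjusted p = 0.0064). Apol9a of the interferon list and Ptprc of the leukocyte list are counted as higher. Both met the thresholds of the members in the Vc- libraries and so had to be high with Tet1CD. The 3 of 8 macrophage markers listed in Vc- cells (Laptm5, Ptprc and Cd68) summed to 258 to 337 without and 541 to 633 with Tet1CD, each higher in all 3 libraries with it, and their part was not tested. Of these, Ptprc could be listed only through libraries with Tet1CD. The remaining lists had few calls: 0 of 7 germline genes were higher and 1 lower (median 0.04), 1 of 6 sperm and cilium genes was higher and 1 lower (median -0.04), 1 of 8 muscle genes was higher and 0 lower (median 0.18), and 2 of 12 endothelial genes were higher and 1 lower (median -0.02). Together 37 of 91 genes were called higher, Apol9a and Ptprc among them, and 3 lower. These Vc- calls were not stable when 1 library was left out. The 37 became 0 without the library labelled Dnmt1 or that with Tet1CD+Dnmt1, 2 without Tet1CD+shDnmt1 and 3 without shDnmt1. The 3 lower calls became 0 in each of these. The Vc- fit has 2 residual degrees of freedom with all libraries. It has 1 when any library but that with shp53+shDnmt1 is left out, so lost calls cannot be tied to the library left out. The difference between media was not tested.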

How the data were processed

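Total RNA of 21 libraries, 7 in each of 3 tables (Vc+, Vc- and MEF), was made into TruSeq RNA libraries, per the labels' protocols. Bowtie, RSEM and the mm10 build appear in the submitters' processing notes. The deposited values are whole numbers, but each SKOM library has the same median and quartile, so they were treated as a normalized score made by the authors and not as counts. How they were normalized, filtered and whether by strand is not given in the sources used here, and depth per library is therefore unknown. No column was mapped to no sample (0 left unused).

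The 35 members are defined in the text. The members and gene lists were chosen with earlier results of these data known. Differences were taken on log2(value + 5), which understates changes of low genes. Between single libraries a change of at least 2-fold was counted, with no test. The SKOM tables were fitted with limma 3.58.1 (R 4.3.3, intensity trend, genes with a mean of at least 10, terms for Tet1CD, Dnmt1, shDnmt1 and shp53, 2 residual degrees of freedom). The p-values were adjusted over all genes. No combination of constructs has a replicate, so the spread behind SEs and p-values holds departures from additive effects of the constructs. It does not measure the spread between repeated cultures or libraries. The fit was tested on simulated data. With 3 against 4 libraries an exact permutation test cannot go below 0.057 (two-sided). Promoters are those of RefSeq for GRCm38.p6, with a match for 25 of 35 members, and 20 within 500 bp of the start. Tables were normalized separately, so a value or threshold need not mean the same level in each. Levels were not tested between tables.

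Genes named were the members with the highest levels with Tet1CD, those in the MEF table, in a gene list, nearest a threshold or changed at least 2-fold among the libraries with Tet1CD; the other members, neighbours and list genes were named after their values were seen. Of 11 lists, 5 held no member; their genes called higher and lower with Tet1CD in Vc+ and Vc- cells were, of those tested, 2 and 2 of 4 and 0 and 0 of 0 (oocyte and early embryo), 7 and 2 of 16 and 1 and 2 of 11 (trophoblast and placenta), 9 and 10 of 29 and 4 and 5 of 23 (epithelium), 12 and 12 of 41 and 1 and 7 of 27 (neural), and 3 and 2 of 7 and 1 and 0 of 2 (liver and gut). Alternatives were other thresholds, pseudocounts (1 and 20), folds (1.5 and 3), centring on the median, another filter, no trend, quantile normalization, Tet1CD as the only term, and leaving out each library.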

Additional observations from a re-analysis of the deposited data

Results flagged for a closer look

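The library labelled 5C with Flag+shLuc is in none of the comparisons above, and the labels do not say what 5C is. Of the 8 members in the MEF table, 3 were at least 2-fold above the MEF control there on the log2(value + 5) scale: I830012O16Rik at 641 against 59, Sp100 at 199 against 10 and C1qtnf5 at 164 against 53. No share of all genes is given for this library, so the 3 of 8 cannot be judged beside it. Sp100 is listed only through the 5C and MEF Tet1CD libraries together, so it had to be high in both. Ces2e, at 32 against 16, was under that fold on this scale. Selp and Dhrs9, which were high in MEFs, were at 1 and 4 in that library.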

How the results depend on the processing

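The number of members followed the thresholds: it was 17 with at most 10 without Tet1CD, 61 with at most 20, 54 with at least 24 with Tet1CD and 4 with at least 64. Counts at least 2-fold changed, which are small, moved with the fold and the pseudocount. For Tet1CD in MEFs (3 higher), the count was 1 with a pseudocount of 20, 7 at a fold of 1.5 and 1 at a fold of 3. It was 6 with the MEF library labelled Dnmt1 as reference, with no share of all genes beside it. Among members listed without the help of the Tet1CD library it was 1 (added after seeing the data). For shDnmt1 in both MEF pairs (1 higher) it was 0 at a fold of 3. For shp53 in both pairs (2 lower) it was 0 with a pseudocount of 20, 4 at a fold of 1.5 and 0 at a fold of 3. With added Dnmt1 on Tet1CD (0 higher, 2 lower), 1 was higher at a fold of 1.5, and 0, 8 and 0 were lower with a pseudocount of 20 and folds of 1.5 and 3. With added shDnmt1 (0 higher, 1 lower), 2 were higher at a fold of 1.5, and 0, 5 and 0 were lower with the same settings. Centring on the median of all genes and a pseudocount of 1 left these counts within 1.5 times. For the genes of the 6 lists that hold a member, leaving out 1 library at a time gave 2 to 8 lower calls in Vc+ cells and, in Vc- cells, 0 to 39 higher and 0 to 4 lower calls, and the other settings of the fit left these counts within 1.5 times. Leaving out any library but that with shp53+shDnmt1 leaves 1 residual degree of freedom. The list counts in Vc+ cells, the shp53 comparison, the interferon motif and promoters at any matched start (median ratio 0.33) were added after seeing the data. The planned tests of the members in Vc- cells were not run, because no member is listed there. No paired analysis was possible because the labels give no replicate numbers and each combination of constructs has 1 library.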
